A study of Macaca mulatta with 24 samples.

Results

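Multiciliogenesis is the program by which an airway cell that has left the cell cycle builds many centrioles and grows a motile cilium from each. Its regulators are described here as 10 genes: GMNC, MCIDAS, FOXN4, CCNO, CDC20B, FOXJ1, MYB, TP73, RFX2 and RFX3. They were taken by symbol from the 35432 genes of the table, with earlier results of these data known. All 10 were present, each in 1 row, and all 10 passed the filter on low values (at least 10 normalized counts in at least 4 of the 24 libraries), as did 14062 genes in all. FOXN4, MCIDAS and CDC20B reached that minimum in 15, 17 and 18 libraries. At recovery FOXN4 never did, MCIDAS did only at 15.7 in smoke, and CDC20B only at 17.9 and 13.8 in smoke. These genes thus passed the filter through the earlier groups, where they were high. Their identifiers are, in that order, ENSMMUG00000065165, ENSMMUG00000030102, ENSMMUG00000020375, ENSMMUG00000010372, ENSMMUG00000001600, ENSMMUG00000003533, ENSMMUG00000018166, ENSMMUG00000016569, ENSMMUG00000011967 and ENSMMUG00000000802.

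The libraries are RNA sequencing of primary epithelial cells of the trachea and bronchi of adult female rhesus macaques, grown on Transwell inserts and differentiated with retinoic acid, their upper surface open to air. Each exposure day lasted 6 hours, under filtered air as the control or under a dilution of whole smoke from burning wood. Cultures were collected after 1 day, after 5 days, or after 5 days and a further 7 days without exposure, called recovery here. Each of these 6 groups holds 1 library from each of 4 animals, S1 to S4. Age and weight differed among them: S1 was 5463 days old (5.59 kg), S2 2930 days (7.17 kg), S3 2238 days (4.56 kg) and S4 1128 days (3.18 kg), so each age is 1 animal. Cultures at recovery were also older in culture, so recovery, culture age and the time of collection cannot be told apart.

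In a multiciliated cell, the geminin family proteins GMNC and MCIDAS act without binding DNA themselves. They work with E2F factors to switch on genes for centriole production, among them CCNO, CDC20B and the transcription factors FOXN4, MYB, TP73 and FOXJ1. FOXJ1, with RFX2 and RFX3, then drives the genes of the moving cilium and stays on in the mature ciliated cell, while MCIDAS, CCNO and CDC20B are known as genes of the short period in which centrioles multiply. Notch signalling from neighbouring cells holds the program back.

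Normalized totals were 11.8 to 15.2 M per library, and approximate depths were 9.43 to 17.4 M reads. The library of S1 in air at 5 days stood apart. Its median correlation with the others was 0.860, against 0.931 to 0.956 for the other 23. Values given over 23 libraries leave it out. The labelled tissue was checked against marker lists. The 20 motile cilium genes with a value summed to 7052 to 48779 normalized counts per library and 8 basal cell markers to 27129 to 78681. The 8 secretory markers summed to 64651 to 201951 in S1 but 12571 to 41757 in the other animals, and the 201951 was in the library that stood apart. SCGB1A1, which marks club cells, was low throughout (3.43 to 47.8). The blood cell marker PTPRC was at 1.69 or less, and FOXI1, which defines ionocytes, at 1.60 or less. Other genes of their lists were higher. The 5 non-epithelial markers, PTPRC among them, summed to 73.2 to 298 normalized counts per library, and COL1A1, COL1A2, PECAM1 and VWF passed the filter. The 5 ionocyte and neuroendocrine markers, FOXI1 among them, summed to 6.29 to 74.2, and CFTR passed the filter.

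MCIDAS, FOXN4, CCNO and CDC20B were high at 1 day and 5 days and low at recovery, whether the cultures had breathed air or smoke. MCIDAS, the coactivator that starts centriole amplification, read 22.5, 21.3, 32.8 and 26.2 normalized counts in S1, S2, S3 and S4 in air at 1 day, 20.8, 10.5, 23.8 and 46.0 at 5 days and 3.27, 6.68, 4.80 and 6.51 at recovery. In smoke it read 19.8, 20.3, 31.3 and 38.0 at 1 day, 99.5, 12.0, 75.6 and 66.8 at 5 days and 6.38, 15.7, 5.65 and 8.04 at recovery. Every recovery library lay below every 5-day library in air. In smoke the ranges overlapped through S2 alone, which was the lowest of the 4 at 5 days and the highest at recovery.

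FOXN4, a forkhead factor of cells entering the multiciliated fate, was close to undetected at recovery. It read 25.9, 23.2, 68.8 and 40.7 in air at 1 day and 33.4, 18.2, 59.2 and 59.3 in smoke. At 5 days it read 17.7, 8.41, 22.7 and 40.8 in air and 42.8, 12.0, 69.9 and 53.5 in smoke. At recovery it read 0, 1.11, 0.96 and 0 in air and 3.83, 0, 0 and 0 in smoke, so that 5 of the 8 recovery libraries were at 0. Summed over the 4 libraries of a group and turned into approximate reads, this was 80 reads at 5 days and 2 at recovery in air, a ratio of 43.1 after allowing for depth (exact 95% interval 11.5 to 362). Without the 5-day library of S1 the ratio in air was 46.5 (12.4 to 391). In smoke it was 202 reads against 3, a ratio of 55.8 (18.8 to 273). These intervals cover counting error only.

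CCNO encodes cyclin O, without which airway cells make too few centrioles and cilia. It read 376, 67.3, 182 and 245 in air at 5 days and 6.54, 37.8, 24.1 and 19.5 at recovery. In smoke it read 416, 82.9, 553 and 411 at 5 days and 12.8, 25.5, 32.0 and 56.3 at recovery. The ranges did not overlap in either exposure, although S2 had the lowest value at 5 days in both. At 1 day CCNO ran from 89.1 to 225 over the 8 libraries, above every recovery library.

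CDC20B, a relative of the mitotic activator CDC20, releases centrioles from the structures that make them. It read 129, 218, 88.3 and 97.4 in air at 1 day, 125, 55.7, 92.0 and 119 at 5 days and 5.45, 7.78, 0.96 and 4.65 at recovery. In smoke it read 205, 263, 82.9 and 115 at 1 day, then 632, 78.0, 234 and 246, then 17.9, 5.90, 0 and 13.8. All 8 recovery libraries were below all 16 earlier ones.

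**Figure D1:**
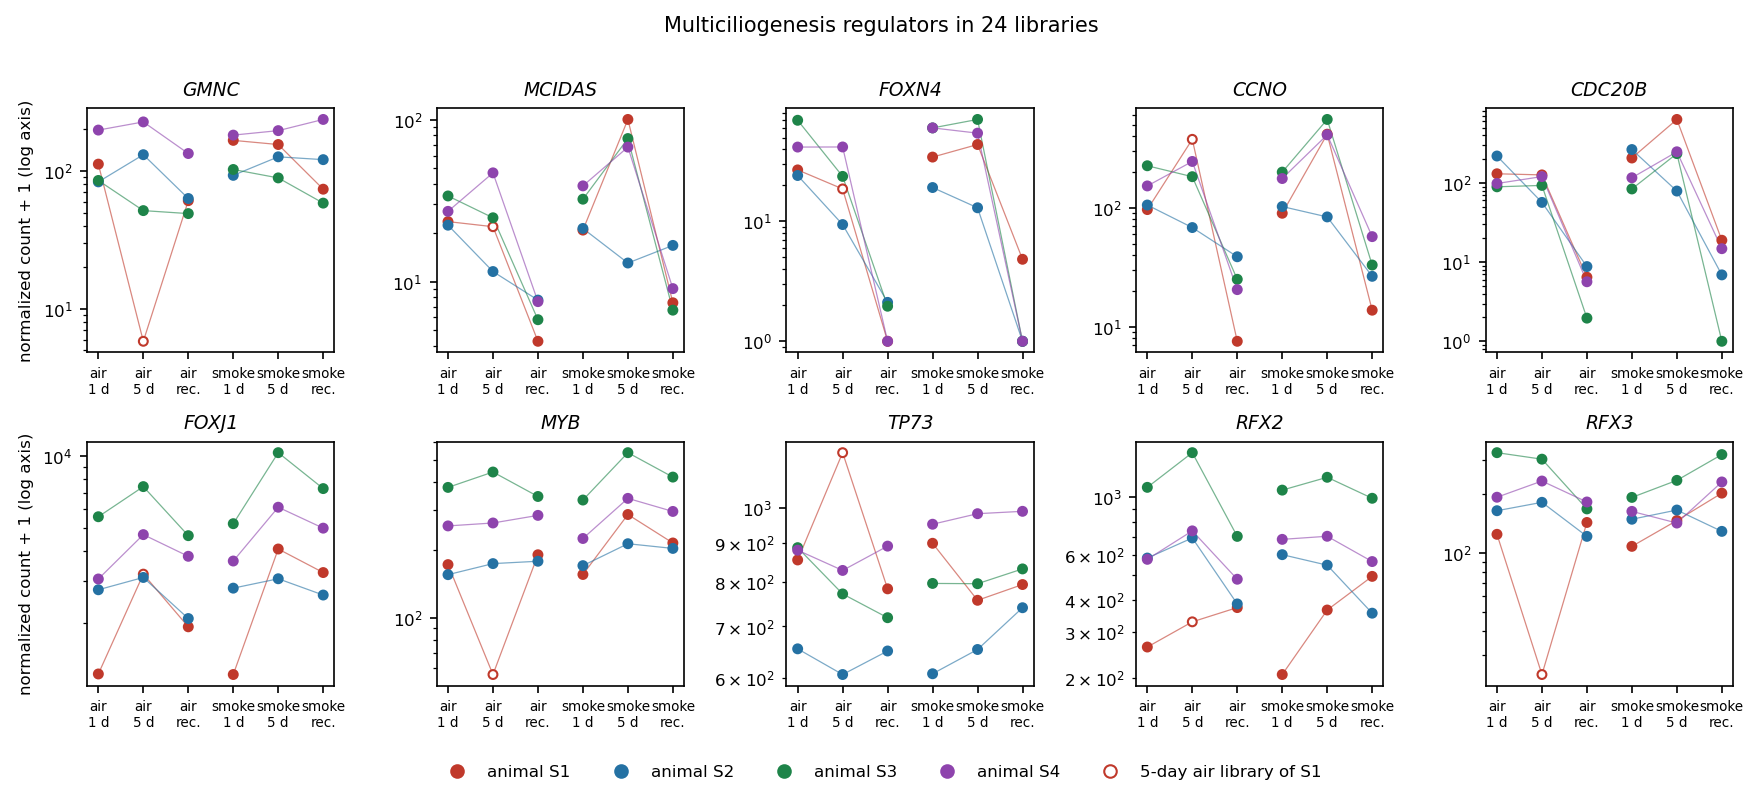
Normalized counts plus 1 (log axis) of the 10 regulators in 24 libraries, 1 panel per gene with its own axis, by exposure and time (rec., recovery). Points are libraries, lines join the libraries of 1 animal within an exposure, and the open point is the 5-day air library of S1. MCIDAS, FOXN4, CCNO and CDC20B drop at recovery in both exposures, and the other 6 overlap between 5 days and recovery.

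These drops were tested with limma on log2(value + 1), with Benjamini-Hochberg adjustment over the 14062 genes, and a gene was called at an adjusted p under 0.05. Recovery against 5 days in air called 4 of the 10 regulators lower and none higher, where 5.47% of all genes were called lower. Log2 fold changes were -1.92 ± 0.51 (SE) for MCIDAS (adjusted p = 0.021), -3.84 ± 0.61 for FOXN4 (0.00057), -3.23 ± 0.60 for CCNO (0.0024) and -4.24 ± 0.73 for CDC20B (0.0012), each lower in 4 of 4 animals. No other regulator of the 10 was without overlap, against 7.51% of all genes lower without overlap. Mean levels fell 4.76-fold for MCIDAS, 9.90-fold for CCNO and 20.8-fold for CDC20B. Over 23 libraries the same 4 genes were called, at -1.95, -3.88, -2.88 and -4.10, with 4.1% of all genes called lower.

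Markers of basal cells, the stem cells of this epithelium, were higher in air at recovery. The 8 basal markers summed to 40331 to 59164 normalized counts in air at 5 days and 64282 to 77315 at recovery, without overlap, and all 8 had log2 fold changes above 0 (median 0.69). ITGB4 (log2 0.70 ± 0.16, SE, limma adjusted p = 0.0082) and ITGA6 (1.62 ± 0.43, 0.021), subunits of the integrin that anchors basal cells, and COL17A1 (1.56 ± 0.48, 0.040), a collagen of the same anchor, were called higher. That was 3 of the 8, where 5.87% of all genes were called higher. Over 23 libraries ITGB4 (0.75, 0.0068) and DST (0.38, 0.024) were called, where 4.62% were, and with the block as well 7 of the 8, where 13.6% were. In smoke the summed levels overlapped, at 37524 to 51459 at 5 days and 27129 to 47087 at recovery, and no basal marker was called without a block over 24 libraries. With the block KRT5 was called lower (-0.74, limma adjusted p = 0.0048) and COL17A1 higher, where 4.47% of all genes were called lower and 3.6% higher. Over 23 libraries KRT5 was called lower without the block (0.031) and with it (0.00044), where 13.6% of all genes were called lower with the block. In bulk RNA, fewer cells of a type and less RNA per cell cannot be told apart, and the part of the basal shift in the regulators' drop in air was not tested.

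In smoke the same comparison again called MCIDAS, FOXN4, CCNO and CDC20B lower, and no other regulator, where 0.377% of all genes were called lower. Log2 fold changes were -2.46 ± 0.51 (SE, limma adjusted p = 0.031), -4.70 ± 0.61 (0.00072), -3.37 ± 0.60 (0.013) and -5.13 ± 0.73 (0.0020). FOXN4, CCNO and CDC20B were lower in 4 of 4 animals and MCIDAS in 3 of 4. Among all genes 4.52% were lower without overlap. Mean levels fell 7.09-fold for MCIDAS, 11.6-fold for CCNO and 31.7-fold for CDC20B. No library is shared between the air and smoke comparisons, although the animals are.

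The number of calls depended on which animals were kept. Without S4, limma called FOXN4 and CDC20B in air and none of the 10 in smoke, and without S3 it called CDC20B alone in smoke. With animal as a block these counts were 3, 3 and 2, and when each comparison was fitted to its own 8 libraries only, CDC20B was called in air and none in smoke (with the block none in air, and these 4 and FOXJ1 in smoke). With no filter on low values MCIDAS was not called in smoke. All 4 genes stayed below 0 in each of the 28 alternatives run in air and 29 in smoke. The recovery drop also stood against 1 day, where MCIDAS, FOXN4, CCNO and CDC20B did not overlap in air or in smoke, and no other regulator of the 10 was without overlap. Among all genes tested, 8.23% in air and 8.7% in smoke lay lower at recovery than at 1 day without overlap.

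**Figure D2:**
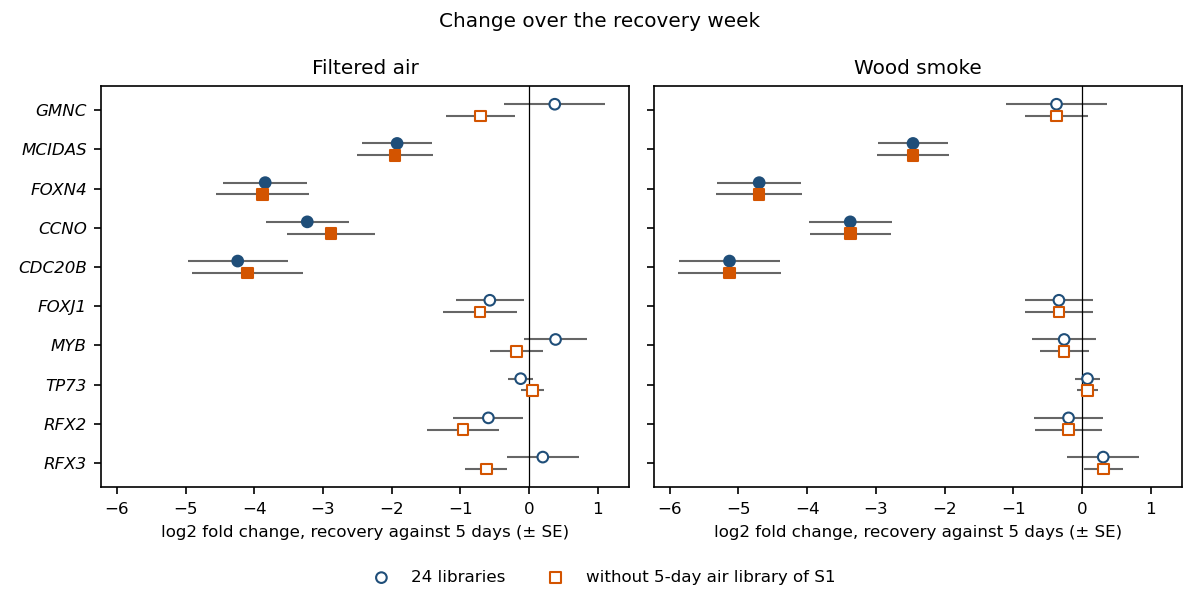
Log2 fold change of each regulator, recovery against 5 days, in air (left) and smoke (right), with bars of ± 1 SE from limma. Circles use 24 libraries and squares 23 (S1 in air at 5 days left out), and filled symbols have an adjusted p under 0.05. MCIDAS, FOXN4, CCNO and CDC20B are filled in both panels, and the open symbols of the other 6 lie between -1 and 1.

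The other 6 regulators were called in neither exposure, with log2 fold changes between -0.59 and 0.39. GMNC, the geminin relative upstream of MCIDAS, read 111, 82.4, 84.4 and 197 in air at 1 day, 4.83, 130.3, 50.6 and 226 at 5 days and 60.0, 62.2, 48.1 and 133 at recovery. In smoke it read 166, 92.0, 102 and 181, then 155, 126, 88.1 and 195, then 72.8, 119.9, 57.5 and 235. S4 was highest in each of the 6 groups. The value of S1 in air at 5 days was 4.83, and the next lowest of the 24 libraries was 48.1.

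The direction of GMNC's change in air turned on that library. From 5 days to recovery the log2 fold change was 0.37 ± 0.73 (SE, limma adjusted p = 0.78) over 24 libraries and -0.70 ± 0.50 (0.46) over 23. With animal as a block and 23 libraries it was -0.69 ± 0.24, and it was then called (0.040). In smoke, which that library does not enter, it was -0.37 ± 0.73 (0.90). GMNC held 48.1 to 235 normalized counts in the 8 recovery libraries, while MCIDAS, which had reached 99.5 at 5 days, ran from 3.27 to 15.7.

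FOXJ1, which turns on the genes of motile cilia, was at its highest at 5 days. It read 1223, 2751, 5554 and 3052 in air at 1 day, 3198, 3097, 7420.4 and 4676 at 5 days and 1926, 2086, 4629 and 3796 at recovery. In smoke it read 1217, 2794, 5195 and 3627, then 4072, 3058, 10285 and 6086, then 3247, 2615, 7281 and 4976. In both exposures it was higher at 5 days than at 1 day in 4 of 4 animals and lower at recovery than at 5 days in 4 of 4, but S3 was above the other animals at every time and the groups overlapped.

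Without a block FOXJ1 was called in none of these 4 comparisons. With animal as a block limma called the rise in air (log2 0.65 ± 0.20, SE, adjusted p = 0.033), the fall in air at recovery (-0.57 ± 0.20, 0.042) and the rise in smoke (0.90 ± 0.20, 0.019), but not the recovery difference in smoke (-0.34 ± 0.20, 0.35). Over 23 libraries with the block the rise in smoke was called (0.90 ± 0.19, 0.0022) and both changes in air were not (0.54, 0.069, and -0.47, 0.098). In the block fits 9.88% of all genes were called higher at 5 days in air, 1.63% in smoke, and 14.1% lower at recovery in air.

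MYB is a factor of dividing and early differentiating cells that also acts in centriole production. It read 55.2, 173, 439.7 and 261 in air at 5 days and 189, 177, 343 and 283 at recovery, 285, 212, 536 and 336 in smoke at 5 days and 213, 202, 418 and 294 at recovery. The 55.2 of S1 in air was the lowest of its 24 values. From 1 day to 5 days in smoke MYB was higher in 4 of 4 animals (log2 0.62 ± 0.46, SE, limma adjusted p = 0.84). With the block and 23 libraries that rise was called (0.62 ± 0.09, 8.2e-05), as was a smaller drop from 5 days to recovery in smoke (-0.26 ± 0.09, 0.033), where 9.44% of all genes were called higher and 13.6% lower.

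TP73, a p53 relative needed for airway ciliation, varied least of the 10 by the ratio of highest to lowest value. It ran from 605 to 1180 normalized counts over the 24 libraries, with S1 in air at 5 days the highest and S2 in air at 5 days the lowest. No comparison called it in any of the alternatives run. RFX2 and RFX3, which share with FOXJ1 the control of ciliary genes, were not called in the fits without a block. RFX2 read 328, 695, 1489 and 740.3 in air at 5 days and 373, 385, 705 and 480.4 at recovery, and RFX3 read 22.9, 180.4, 300.3 and 232 at 5 days and 142, 121, 167 and 181 at recovery.

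In air both changes moved when the 5-day library of S1 was left out. The RFX3 value of that library, 22.9, was the lowest of the 24. Its RFX2 value, 328, lay within the 205 to 493 of S1's other libraries. From 5 days to recovery RFX2 changed by log2 -0.59 ± 0.51 (SE, limma adjusted p = 0.47) over 24 libraries and -0.96 ± 0.52 (0.29) over 23. RFX3 went from 0.20 ± 0.52 (0.84) to -0.62 ± 0.31 (0.24). With the block and 23 libraries both were called lower, at -0.71 ± 0.23 (0.024) and -0.53 ± 0.18 (0.036), beside 13.5% of all genes. In smoke RFX2 changed by -0.20 and RFX3 by 0.31, and neither was called.

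Ordered by mean, smoke at 5 days was the highest of the 6 groups for GMNC, MCIDAS, FOXN4, CCNO, CDC20B, FOXJ1 and MYB. Air at recovery was the lowest for GMNC, MCIDAS, FOXN4, CCNO, CDC20B, FOXJ1, TP73 and RFX2. Neighbouring groups in these orders overlapped with 3 exceptions. FOXN4 and CDC20B separated between air at 5 days and smoke at recovery, and CCNO between smoke at 1 day and smoke at recovery. Without the 5-day air library of S1 the lowest mean of TP73 was air at 5 days (734) instead of air at recovery (760.0). The highest of RFX3 was then air at 5 days and the highest of TP73 smoke at recovery. MCIDAS then also separated between air at 1 day and smoke at recovery.

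**Figure D3:**
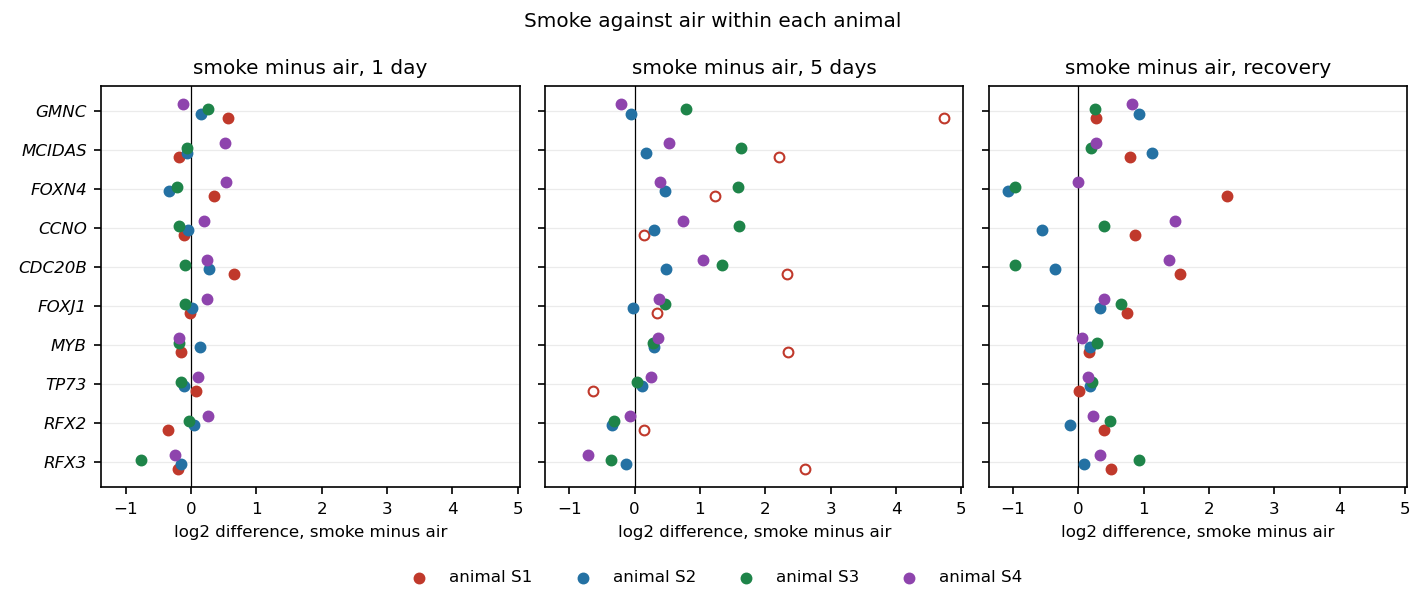
Log2 difference between the smoke and the air library of the same animal, for each regulator at 1 day, 5 days and recovery, with points coloured by animal and S1 open at 5 days. The points of the 10 regulators straddle 0 at 1 day, 5 regulators have 4 of 4 points above 0 at 5 days, and 6 have at recovery.

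Smoke against air asked whether exposure moved the regulators, and no regulator was called at any time, with or without the animal block over 24 libraries. With the block 0.0782% of all genes were called at 1 day, 1.69% at 5 days and 3.41% at recovery. At 1 day, where 0.0284% of all genes were called, the median log2 fold change of the 10 was 0.01 and the range -0.34 to 0.27. None had an unadjusted p under 0.05. RFX3 was lower in smoke in 4 of 4 animals at that time, with -0.34 ± 0.52 (SE), and no other regulator moved one way in all 4. The smallest limma adjusted p among the 10 was 1.0, and 0.42 with the block and 23 libraries.

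At 5 days 8 of the 10 were above 0, with a median of 0.76 beside 0.01 for all genes, and 0.0711% of all genes were called. MCIDAS was 2.51-fold higher in smoke by group means, with animal differences of 2.20, 0.18, 1.63 and 0.53 on the log2 scale in S1 to S4 and a log2 fold change of 1.13 ± 0.51 (SE, limma adjusted p = 0.51). CDC20B was 3.03-fold higher (differences 2.33, 0.48, 1.33 and 1.04, log2 1.29 ± 0.73, 0.60). FOXN4 was 1.99-fold higher (1.23, 0.47, 1.58 and 0.38, log2 0.91 ± 0.61, 0.66) and CCNO 1.68-fold (0.14, 0.30, 1.60 and 0.74, log2 0.70 ± 0.60, 0.73). These 4 genes and MYB (0.82 ± 0.46, 0.60) were higher in 4 of 4 animals. Smoke and air overlapped at 5 days in all 10 regulators, where 1.81% of all genes were higher and 1.65% lower in smoke without overlap. S2 had the smallest difference of the 4 animals for MCIDAS and CDC20B.

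Removing the 5-day air library of S1 left MCIDAS (1.10), CDC20B (1.43), FOXN4 (0.87) and CCNO (1.04) above 0, none called (0.377% of all genes were), but changed others. GMNC went from 1.32 to 0.24 and MYB from 0.82 to 0.25, and RFX3 turned from 0.35 to -0.47. The median of the 10 went from 0.76 to 0.25. With the block and 23 libraries MYB alone was called (log2 0.36 ± 0.10, SE, limma adjusted p = 0.028), beside 2.96% of all genes called higher. MCIDAS was at 1.13 ± 0.52 in that fit (0.21). Over 24 libraries the unadjusted p was under 0.05 for 1 regulator, MCIDAS, and for 4 with the block.

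At recovery all 10 were above 0, with a median of 0.43 and a range of 0.06 to 0.59, and 0.242% of all genes were called. None of the 10 had an unadjusted p under 0.05, and 1 had with the block. GMNC, MCIDAS, FOXJ1, MYB, TP73 and RFX3 were higher in smoke in 4 of 4 animals. FOXJ1 was 1.46-fold higher, with differences of 0.75, 0.33, 0.65 and 0.39 and a log2 fold change of 0.53 ± 0.49 (SE, limma adjusted p = 0.89, and 0.17 with the block). MCIDAS was 1.68-fold higher (0.79, 1.12, 0.20 and 0.27, log2 0.59 ± 0.51, 0.88), from levels under 16 in every library. Fitted to the 8 recovery libraries alone with the block, GMNC, FOXJ1 and RFX3 were called higher, beside 8.93% of all genes. Of the basal markers all 8 were below 0 in smoke, KRT5 (log2 -1.22, limma adjusted p = 0.017) and ITGB4 (-1.04, 0.0091) were called lower, and their summed level was 27129 to 47087 in smoke against 64282 to 77315 in air. With the block 5 of the 8 were called, NGFR (-1.08, 0.0021) among them. The part of that shift in the regulators' values was not tested.

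The change of the smoke effect with time was tested as an interaction. From 1 day to 5 days, where 0.0142% of all genes were called, 8 of the 10 were above 0 and none was called (smallest limma adjusted p 0.95). Over 23 libraries 8 were again above 0 and none was called (smallest 1.0, and 0.15 with the block), while GMNC went from 1.10 to 0.02 and RFX3 from 0.69 to -0.13. From 5 days to recovery, where 0.348% were called, 6 were below 0 and none was called (smallest 0.75). Over 23 libraries 5 were below 0 and none was called (smallest 0.34). No unadjusted p was under 0.05 in either over 24 libraries. With the block and 23 libraries RFX3 was called in the second of these (log2 0.84 ± 0.25, SE, adjusted p = 0.032, with 5.26% of all genes called higher). A p above the threshold, here or elsewhere, does not show that smoke and air were alike: the standard errors of MCIDAS, FOXN4, CCNO and CDC20B in smoke against air were 0.51 to 0.73 on the log2 scale.

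Between 1 day and 5 days none of the 10 was called in either exposure without a block, where 3.98% of all genes were called in air and 0.284% in smoke, and no unadjusted p of the 10 was under 0.05. In air 4 were above 0 and 6 below, with a median of -0.24, which became 0.06 over 23 libraries. In smoke 8 were above 0, with a median of 0.42. CCNO, at log2 1.15 ± 0.60 (SE, limma adjusted p = 0.66), and MCIDAS, at 0.90 ± 0.51 (0.70), were higher in S1, S3 and S4 and lower in S2. S2 also had the fewest mitotic transcripts at 5 days, 441 and 562 summed normalized counts in air and smoke, against 1241 to 2488 in the other animals. The part of cycling cells in this was not tested.

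The genes that the regulators act on were followed as lists. Of 14 centriole amplification genes tested, PLK4, the kinase that starts each new centriole, was called lower at recovery than at 5 days in air (log2 -1.88 ± 0.52, SE, limma adjusted p = 0.025) and in smoke (-3.20 ± 0.52, 0.0088). It read 109.8, 50.4, 140 and 228 in air at 5 days and 26.8, 31.1, 30.5 and 34.3 at recovery, 451, 66.6, 589 and 326 in smoke at 5 days and 48.7, 30.3, 16.7 and 29.2 at recovery. The ranges did not overlap in either exposure, and S2 was again lowest at 5 days. Over 23 libraries the change in air was -1.91 ± 0.57 (0.042). In smoke the centriole protein genes HYLS1 (-1.36 ± 0.30, 0.041) and CENPJ (-1.93 ± 0.43, 0.043) were called lower too, so that 3 of the 14 were called lower, where 0.377% of all genes were. With the block 5 were, SASS6 and STIL (-1.26 ± 0.25, 0.0046) among them, where 4.47% of all genes were. DEUP1, a scaffold of the structures that mass-produce centrioles in these cells, was not called in air (-0.27 ± 0.50) or smoke (-0.20 ± 0.50). The median of the 14 was -0.22 in air (-0.34 over 23 libraries) and -0.20 in smoke. With the block in air PLK4 and CEP63 were called lower and POC5 higher, where 14.1% of all genes were called lower and 14.2% higher. With the block and 23 libraries STIL was called lower too (-0.73, limma adjusted p = 0.018), where 13.5% of all genes were called lower.

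The 20 motile cilium genes tested, which encode the dynein arms, radial spokes and other parts of the moving axoneme, were not called at recovery against 5 days in air or smoke. Of the 20, 14 were above 0 in air with a median of 0.23, and 18 were above 0 in smoke with a median of 0.43. Medians of all genes were 0.02 and 0.01. Without the 5-day library of S1 the direction in air depended on the fit. Over those 23 libraries 5 of the 20 were above 0 without a block, with a median of -0.16. With the block 14 were, with a median of 0.18. The summed level of S1 was the lowest of the 4 animals in air both at 1 day (7052) and at 5 days (8220). Over 24 libraries the medians of the 10 regulators in air and smoke were -0.58 and -0.35. With the block over 24 libraries 1 of the 20 was called higher in air, where 14.2% of all genes were, and 2 in smoke, where 3.6% were, none lower. Their summed level ran from 8220 to 45819 in air at 5 days and from 16416 to 37699 at recovery. In smoke these ranges were 9904 to 47860 and 16232 to 48779.

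All 10 mitotic genes were below 0 at recovery against 5 days in smoke (median -1.43). CDK1, the main mitotic kinase, was called lower without a block (log2 -1.70 ± 0.38, SE, limma adjusted p = 0.043). With the block 9 of the 10 were called lower, where 4.47% of all genes were. In air 5 were above 0 and 5 below, with CDK1 called lower (-1.42 ± 0.38, 0.021) and MKI67, a marker of cycling cells, called higher (1.78 ± 0.56, 0.045). Over 23 libraries without a block both missed the threshold at similar sizes, CDK1 at -1.17 ± 0.39 (0.068) and MKI67 at 1.81 ± 0.62 (0.077), and with the block both were called over 23 libraries (0.0034 and 0.0070). The summed level of the 10 mitotic genes was 441 to 1516 in air at 5 days and 963 to 1027 at recovery, and 562 to 2488 and 371 to 849 in smoke. CDC20, the paralogue of CDC20B, is among these genes and PLK4 also serves dividing cells.

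Of 9 Notch pathway genes tested, the ligand JAG1 was called higher at recovery than at 5 days in air (log2 1.61 ± 0.37, SE, limma adjusted p = 0.010), and the ligand JAG2 (-1.03 ± 0.24, 0.011) and the target HES1 (-0.77 ± 0.20, 0.019) lower. In that comparison 5.87% of all genes were called higher and 5.47% lower. Over 23 libraries JAG1 was at 1.07 (0.011) and JAG2 at -0.85 (0.033), and HES1 missed the threshold (-0.55, 0.053) unless the block was fitted (0.00045). In that block fit NOTCH1 and DLL1 were called lower too, where 13.5% of all genes were. None of the 9 was called in smoke without a block over 24 libraries, and NOTCH3 was called lower with it, where 4.47% of all genes were. Of 11 cofactors and paralogues tested, among them E2F4, GMNN (geminin) and RFX1, TP63 alone was called higher at recovery in air (1.09 ± 0.35, 0.047), beside 5.87% of all genes. Its change became 0.50 (0.062) over 23 libraries and 0.43 (0.014) with the block as well. RBL2 was called lower over 23 libraries without a block, where 4.1% of all genes were. With the block as well, E2F4 was called higher and TFDP1 and RBL2 lower, where 13.6% of all genes were called higher and 13.5% lower. In smoke none was called without a block, and MYBL2 was called lower with it, beside 4.47% of all genes. In smoke against air none of the centriole, motile cilium, Notch, mitotic or cofactor genes was called at any time without a block over 24 libraries. With the block MKI67 (-1.86, 0.012) and CENPF (-1.08, 0.045) were called lower in smoke at recovery. The genes with the smallest p in these lists at 5 days included CENPJ (1.23 ± 0.43, 0.36), AURKA (0.98 ± 0.32, 0.32), JAG2 (-0.77 ± 0.24, 0.30) and DNAH5 (0.60 ± 0.81, 0.85). At recovery they included MKI67 (-1.86 ± 0.56, 0.22), NOTCH3 (-0.85 ± 0.26, 0.24), CEP57 (0.31 ± 0.14, 0.51) and PIFO (0.64 ± 0.50, 0.85).

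With the block and 23 libraries more of these genes were called in smoke against air, as were more genes of all kinds. At 5 days, where 6.26% of all genes were called, JAG2 (log2 -0.45, limma adjusted p = 0.022) and NOTCH2 were called lower, as was RBL2 of the cofactors, and HYLS1 higher. At recovery, where 18.8% of all genes were called, 3 of 14 centriole genes were called higher, CEP57 (0.0029), POC5 (0.032) and CCP110 (0.029), and 1 of 20 motile cilium genes, PIFO (0.017). NOTCH3 (0.0014) and JAG1 (0.0035) were called lower and HES1 (0.038) higher of the 9 Notch genes. MKI67 (0.0011), CENPF (0.0081) and TOP2A (0.016) were called lower of the 10 mitotic genes, and TP63 and E2F4 lower of the 11 cofactors.

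**Figure D4:**
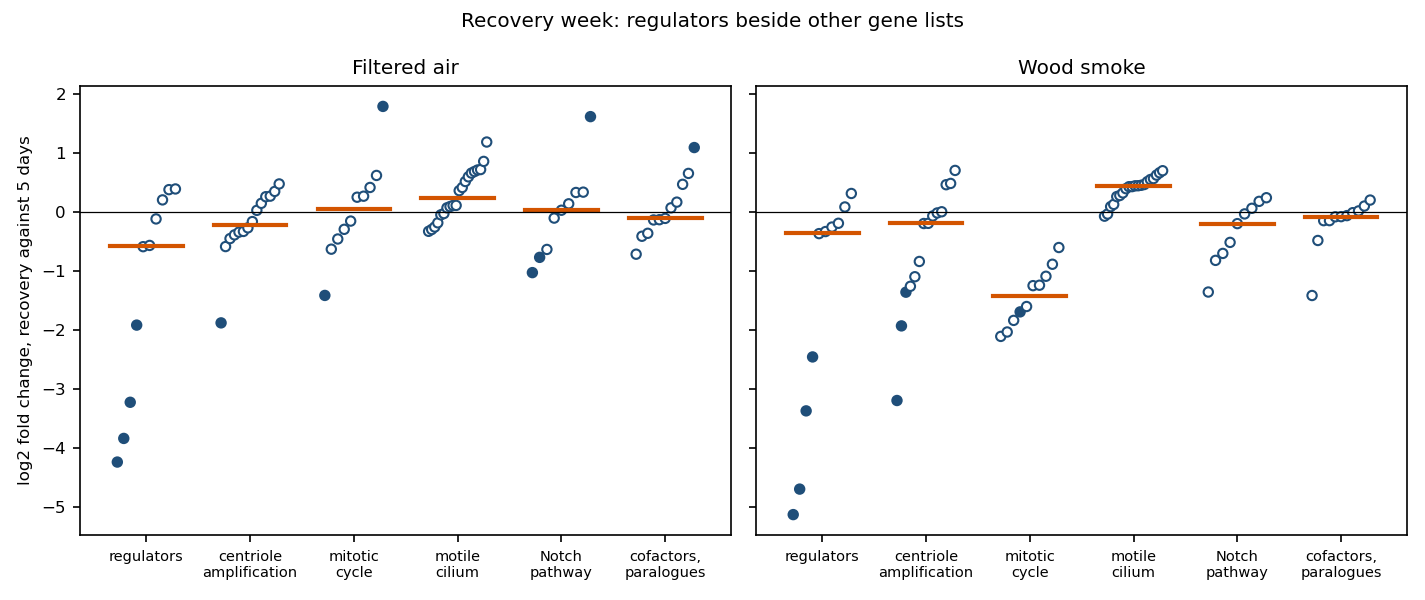
Log2 fold change at recovery against 5 days for the 10 regulators and 5 other gene lists, in air (left) and smoke (right). Each point is a gene, filled at a limma adjusted p under 0.05, and the bar is the list's median. The regulators split into 4 filled points under -1.9 and 6 open points between -0.59 and 0.39, the motile cilium genes have no filled point, and the lowest centriole amplification gene in both panels is PLK4.

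Correlations across the 24 libraries describe how far the regulators moved together. Log2 values of MCIDAS, FOXN4, CCNO and CDC20B correlated with each other at 0.81 to 0.91 (Pearson). As deviations from the group means these values were 0.12 (CCNO with CDC20B) to 0.73 (MCIDAS with CCNO), with CDC20B at 0.37 with MCIDAS and 0.24 with FOXN4. FOXJ1, MYB, RFX2 and RFX3 correlated with each other at 0.49 to 0.87, and at 0.73 to 0.91 without the 5-day air library of S1. As deviations from the group means they were at 0.59 to 0.92. Between CDC20B and FOXJ1 the value was -0.04. GMNC correlated at 0.26 with MCIDAS, and at 0.47 without the library of S1. These describe libraries that share animals and the same 6 groups.

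The genes whose pattern was most like each regulator were taken from all genes with a symbol among those tested. Over 24 libraries PLK4 was first for MCIDAS (0.94) and FOXN4 (0.95) and second for CDC20B (0.88, after FOXN4 at 0.89), and MCIDAS was first for CCNO (0.91). CCKBR, which encodes a gastrin receptor, was among the nearest for MCIDAS (0.89) and second for FOXN4 (0.93) and CCNO (0.91). Over 23 libraries PLK4 was first for FOXN4 (0.95) and second for MCIDAS (0.94), and MCIDAS was first for CCNO (0.94). CDC20B then had PRR14 (0.92), QARS1 (0.91) and RBBP6 (0.91), without FOXN4 or PLK4. After the group means were removed, PLK4 was still first for MCIDAS (0.85) and FOXN4 (0.82, and second over 23 libraries). It was not among the nearest for CCNO or CDC20B. Over 24 libraries CCNO then had UBE2T (0.82), C3H21orf62 (0.81) and ZNF44 (0.81), and CDC20B had LRRC47 (0.82), FOXE1 (0.80) and AKAP8 (0.80).

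The other regulators had other companions. For FOXJ1 they were LRRC46 (0.95), UNC119B (0.95) and ZMYND10 (0.94), the last of which is needed to assemble dynein arms, and for RFX2 they were ZSCAN18 (0.94), CFAP45 (0.94), an axonemal protein gene, and CCDC30 (0.94). MYB was closest to PCM1 (0.94), a gene of the granules around centrioles, and IFT81 (0.93), and RFX3 to LMLN (0.97), TOGARAM1 (0.96) and CNOT6L (0.95). Over 23 libraries MYB had RUVBL2 (0.92), TRAF3IP1 (0.92) and UNC119B (0.92) instead, and RFX3 had LMLN (0.92), NSUN7 (0.91) and FUZ (0.90). FOXJ1 then had TMEM138 (0.96), UNC119B (0.96) and FANK1 (0.96), and RFX2 had CCDC151 (0.96), CCDC30 (0.95) and SPEF1 (0.94). Over 24 libraries TP73 had GSTA1 (0.85), C1RL (0.84) and POLR2E (0.83), and over 23 libraries EPB41L5 (0.86), UHRF1BP1L (0.86) and GSTA1 (0.85). GMNC had RMI1 (0.89), NIN (0.88) and ZBTB10 (0.88), and over 23 libraries STAP2 (0.92), C11H12orf56 (0.89) and FAM3D (0.89).

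CDC20B, MCIDAS and CCNO are neighbours. In RefSeq's T2T-MMU8v2.0 assembly, used for gene order only, the order is GZMK, GZMA, CDC20B, MCIDAS, CCNO, DHX29 and MTREX, with GPX8 and the microRNA genes MIR449A and MIR449B inside CDC20B. MicroRNAs of that family are known to act in multiciliogenesis, and no value for them was used here. DHX29, a helicase of translation, read 776, 811, 839 and 756 in smoke at 5 days and 858, 925, 809.8 and 797 at recovery. MTREX, a helicase of the RNA exosome, read 1406, 1685, 1695 and 1446 at 5 days and 1443, 1729, 1917 and 1594 at recovery. At recovery both overlapped their 5-day range.

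Log2 fold changes of DHX29 and MTREX at recovery against 5 days were 0.09 and 0.10 in smoke and 0.15 and -0.14 in air. GPX8, a peroxidase of the endoplasmic reticulum, lies within CDC20B, and the counting is not stated to use strand. It read 62.0, 77.6, 79.3 and 59.6 in smoke at 5 days and 124, 116, 121 and 106 at recovery, higher in 4 of 4 animals without overlap (0.75), and changed by -0.10 in air. Among all genes tested, 3.68% were higher without overlap in that comparison in smoke. The granzyme genes GZMK and GZMA, markers of lymphocytes, were at 0 and at 0.785 or less.

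**Figure D5:**
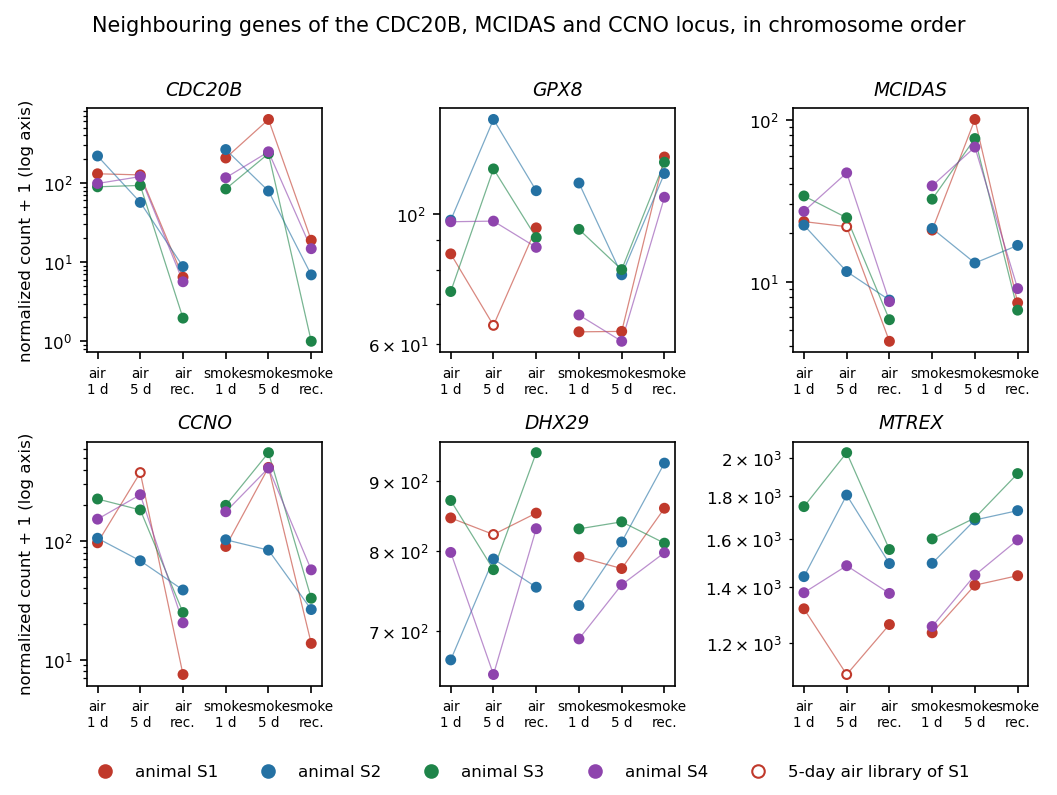
Normalized counts plus 1 (log axis, 1 scale per panel) of CDC20B, GPX8, MCIDAS, CCNO, DHX29 and MTREX in 24 libraries, by exposure and time (rec., recovery), with 1 colour per animal. The 3 regulators drop at recovery. GPX8 lies between 59.6 and 144 and is higher at recovery than at 5 days in smoke. DHX29 lies between 651 and 942 and MTREX between 1097 and 2031.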

How the data were processed

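RNA of 24 cultures was sequenced from poly-A libraries. Per the submitters' processing notes FastQC, Trim Galore, Bowtie2 and RSEM were used. Their versions, the genome build, annotation, counting strand and normalization are not stated in the labels or headers, that is, not given in the sources used here. The deposited signal values are normalized counts: they are not whole, and each library's genes lie at a median 1.01 times their usual level over all libraries. From 82.5% to 85.9% of low values lay within 0.1 of a whole multiple of 1 library's step, so reads and depth are approximate. Genes with at least 10 in at least 4 libraries were fitted as log2(value + 1) with limma 3.58.1 (R 4.3.3), 1 mean per group, trended variance, two-sided tests and Benjamini-Hochberg adjustment over 14062 genes. The same animals recur in each group, and deviations from group means correlated at 0.303 to 0.804 between libraries of 1 animal. Between animals they correlated at most at 0.0149, but deviations of a group cancel over its animals, so the centring itself lowers these values. Because the animals recur, a fit with animal as a block is given beside the regulators' results where it changed a call. For the other lists it is given mainly as counts. Fits over 23 libraries drop the 5-day air library of S1. Alternatives were a random animal effect, other pseudocounts, filters, scalings and thresholds, fits to 1 comparison's libraries, and omission of animals or libraries. The code was tested on simulated data. Values are not divided by gene length, so levels are not compared between genes. All 10 regulators are named, with up to 3 most alike genes of each (1 is not reported here) and, of the other lists, genes called without a block over 24 libraries at recovery against 5 days, some with the smallest p in smoke against air, and others chosen after their values were seen. The members and lists were chosen with earlier results of these data known. Sequences were not used here.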

Additional observations from a re-analysis of the deposited data

Results flagged for a closer look

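Of 60 groups of 4 libraries checked, 1 for each regulator and group, 3 held a library far from the other 3, by a gap to its nearest neighbour, as a share of the group's range, above Dixon's 95% critical value, which chance gives in about 1 group in 20. In air at recovery S4 had 132.9 normalized counts of GMNC (gap over range 0.834), above the other animals. In smoke at recovery S1 had 3.83 of FOXN4 (1.00) and the other 3 libraries had none. In air at 1 day S2 had 653 of TP73 (0.862), below the other animals. The change of the smoke effect with time was called for 0 of the 10 regulators without a block.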

How the results depend on the processing

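The drop of MCIDAS, FOXN4, CCNO and CDC20B at recovery kept its sign in every alternative run, but not its calls. In air 4 regulators were called, 1 in a fit to only the 8 libraries compared, 0 there with the animal block, and 2 to 7 when an animal or library was left out. In smoke 4 were called, 0 in a fit to the 8 libraries and 0 to 5 with omissions, and 5 to the 8 libraries with the block. In the other comparisons none was called. With the block, 5 days against 1 day called 1 regulator in air and 1 in smoke (3 in smoke over its own 8 libraries), and smoke against air at recovery called 3 over its own 8 libraries. With omissions the counts were 0 to 1 for smoke against air at 5 days, at recovery and for the smoke effect from 5 days to recovery, and 0 to 2 for 5 days against 1 day in each exposure. The median of the 10 ranged with omissions from 0.22 to 0.50 for smoke against air at recovery and from -0.70 to 0.010 for the smoke effect from 5 days to recovery (without an animal -0.54 to -0.043, and over 23 libraries -0.024, or -0.075 with the block). In air it ranged from -0.46 to 0.069 for 5 days against 1 day (without S1 -0.021, without its 5-day library 0.063, or -0.045 with the block, and without the 5-day library of S2 or S4 -0.020 and -0.43 with the block). For recovery against 5 days in air it ranged from -0.84 to -0.48 (without S1 -0.74). GMNC reversed to -0.69 and RFX3 to -0.53 in air at recovery when the animal block was fitted over 23 libraries, and RFX3 to -0.59 with S1 left out and the block fitted. The cause was not tested. Values not called changed sign in 147 of 2720 alternatives checked, of which 8 were not omissions of a library or animal. Equal library totals moved the median of all genes by up to 0.16 on the log2 scale and the calls in air at 5 days against 1 day from 233 higher and 326 lower to 118 and 772, and in air at recovery from 826 and 769 to 917 and 568. No call at recovery was lost under either scaling. Depth limits FOXN4, at 0 to 3 approximate reads a library at recovery, and MCIDAS and CDC20B at that time.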
